A study of Mus musculus with 14 samples.

Results

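The growth arrest and DNA damage inducible 45 (GADD45) family of stress sensors was examined, which has 3 genes in the mouse, Gadd45a, Gadd45b and Gadd45g. The members were chosen by gene symbol: every probeset that the platform annotation assigns to one of the 3 genes was taken, which gave 5 of the 22626 probesets tested and 3 of the 12393 genes with a symbol of their own. Gadd45a was represented by 1 probeset, Gadd45g by 1 and Gadd45b by 3. Higher signals of Gadd45g after heat shock and after Lipofectamine were already known when the family was picked. The differences of the members from control in those 2 treatments are therefore given as descriptions, with no test. So is the difference of Gadd45g between those 2 treatments.

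RNA came from B16-F10 cells, a mouse melanoma line derived from C57BL/6J animals, and was hybridised to 14 single-colour oligonucleotide arrays. The 5 control arrays carried RNA of untreated cells. The 3 heat shock arrays carried RNA of cells held at 42.5 °C for 1 h and returned to 37 °C for 30 min. The 3 Lipofectamine arrays carried RNA of cells kept for 3 h in Opti-MEM with the cationic lipid Lipofectamine 2000 but no plasmid, then for 30 min in fresh serum medium, so that the lipid and the change of medium cannot be told apart. The 3 benzyl alcohol arrays carried RNA of cells given 40 mM of this membrane-fluidising alcohol for 1 h at 37 °C, with a recovery that is given as 3 h in one description and as 30 min in another. All groups were of this single line. Of 10 melanocyte markers 9 were measured, and 8 or 9 of them lay above the array-wide median in every group, while 0 to 2 of 8 fibroblast, macrophage or epithelial markers did. The labels call each array a biological replicate, and nothing further tells how far the cultures of a group were separate. The p-values set differences against the spread between these samples. In RNA of a whole culture, fewer responding cells and less RNA per cell cannot be told apart.

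GADD45 proteins are small acidic proteins without enzyme activity of their own, which act by binding other proteins. They bind and activate the kinase Map3k4, the entry to the p38 and JNK stress cascades, and they bind Pcna, the p21 protein encoded by Cdkn1a, and the Cdk1 and cyclin B1 complex, through which they slow the passage from G2 into mitosis. The 3 genes answer to partly different inducers: Gadd45a is a classical target of p53 and of the Atf4 branch of the stress response, Gadd45b was first known as an early response gene of myeloid differentiation and is induced by TGF-beta and NF-kB signalling, and Gadd45g was first known as a cytokine response gene.

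The promoter windows of the 3 genes, from 250 bases before to 50 after the annotated start in RefSeq (mouse build GRCm38.p6), are shown in part because the genes share some short motifs and differ in others. Gadd45a lies on chromosome 6 (67035096 to 67037407, minus strand), Gadd45b on chromosome 10 (80930091 to 80932204, plus strand) and Gadd45g on chromosome 13 (51846675 to 51848475, plus strand). The lines below give 28 bases each, 5′ to 3′ on the gene's strand and upstream of the start, with the matched motif in capitals.
Gadd45a, octamer, chr6:67037487-67037514, minus strand: acgtctgctaATTTGCATaacccaatgg
Gadd45a, octamer on the opposite strand, chr6:67037460-67037487, minus strand: gcctgactgcATGCAAATgaagctggac
Gadd45g, octamer, chr13:51846562-51846589, plus strand: ctgccgcctcATTTGCATcagaaagcgg
Gadd45g, C/EBP and ATF type motif on the opposite strand, chr13:51846564-51846591, plus strand: gccgcctcatTTGCATCAgaaagcgggc
Gadd45b, EGR type motif on the opposite strand, chr10:80930052-80930079, plus strand: cgctcgcagCGCCCGCGCgctcactccg

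The octamer ATTTGCAT, searched on both strands, was in 1.74% of all 32851 windows and in those of Gadd45a (at -97 and -70) and Gadd45g (at -103). TGATGCAA was in 0.895% of windows and in that of Gadd45g at -101, where it overlaps the octamer by 6 letters. GCGNGGGCG was in 5.55% of windows and in that of Gadd45b at -30. CCAAT, in 37.4% of windows, was in all 3, and GGGCGG, in 35.7%, was in those of Gadd45a and Gadd45b. The heat shock type motif GAANNTTC (7.86% of windows), TGACGTCA (1.79%), TGANTCA (7.81%) and the CArG box (1.63%) were in none of the 3. These matches describe letters in the window only. The paper lists GADD45G among Lipofectamine-raised genes with a predicted promoter site for serum response factor, the factor that binds CArG boxes. It took such sites from gene sets of a motif database. The CArG box was searched here as a fixed pattern in this window, so its absence does not decide on such a site.

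Against the mean of all 5 control arrays, Gadd45g was the member with the largest difference after heat shock and after Lipofectamine, and it was also higher after benzyl alcohol. On the log2 scale of the deposited signals, the control arrays 1 to 5 read 5.71, 5.32, 5.80, 5.61 and 5.38 for Gadd45g. The heat shock arrays read 8.10, 7.90 and 8.45, and the Lipofectamine arrays 7.28, 7.72 and 7.06. The benzyl alcohol arrays read 7.11, 6.21 and 7.92. Every treated array was therefore above every control array, and the benzyl alcohol arrays were the most scattered, with the second of them lowest.

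**Figure D1:**
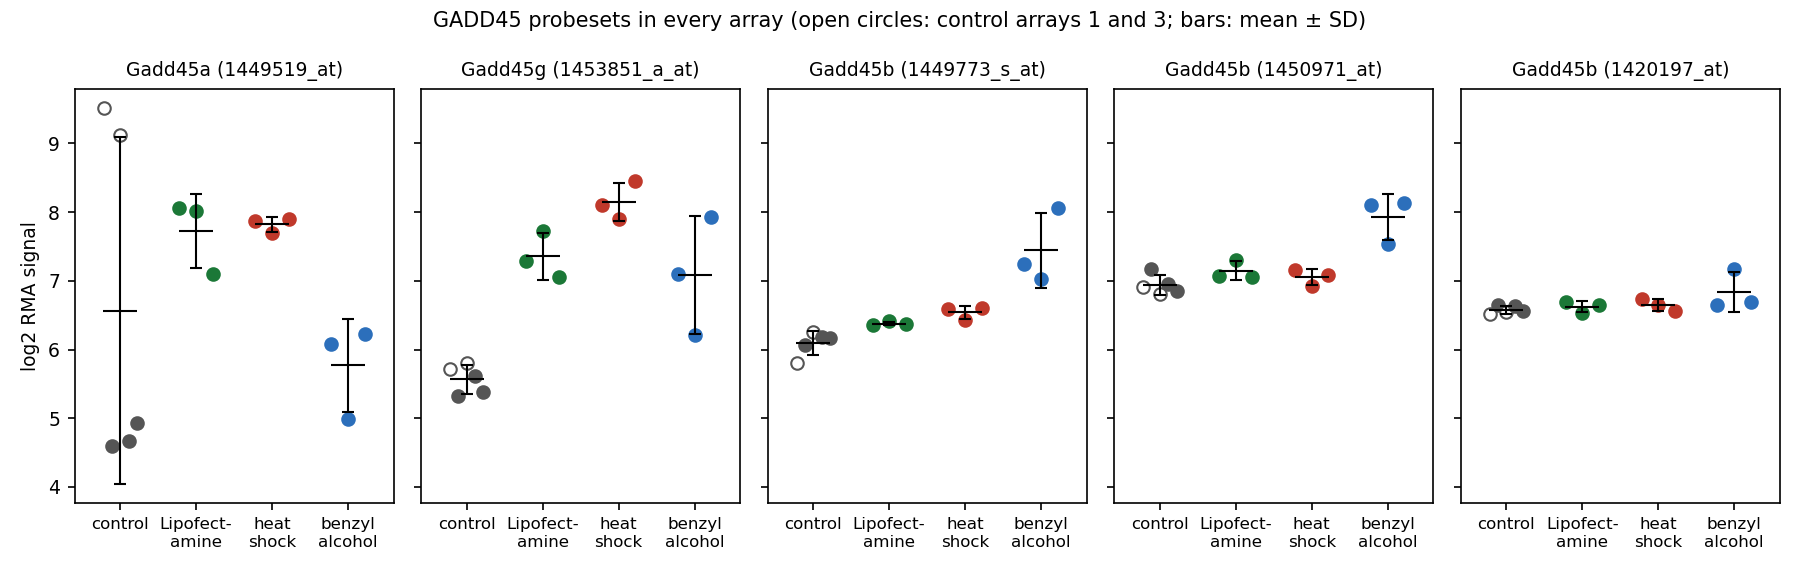
Log2 signal of the 5 GADD45 probesets (panels) in each array (points) of the control, Lipofectamine, heat shock and benzyl alcohol groups, with open circles for control arrays 1 and 3 and bars for the mean ± SD. The Gadd45g points of all treated arrays sit above those of the controls, while the Gadd45a controls fall into a high pair and a low trio.

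The group means of Gadd45g were 5.57 ± 0.21 (SD, n = 5) in control cells, 8.15 ± 0.28 (n = 3) after heat shock, 7.35 ± 0.34 (n = 3) after Lipofectamine and 7.08 ± 0.86 (n = 3) after benzyl alcohol. The difference from control was 2.58 after heat shock (SE 0.166), which is 5.99-fold, and 1.79 after Lipofectamine (SE 0.166), which is 3.45-fold. Ranked by size among upward differences of the 22626 probesets, Gadd45g was at place 15 after heat shock and at place 22 after Lipofectamine. These values and the missing overlap with control were known features of the choice. Of the 5 GADD45 probesets, 2 lay wholly above control after each treatment, Gadd45g and the Gadd45b probeset 1449773_s_at, beside 7.58% of all probesets after heat shock and 3.69% after Lipofectamine. The comparisons of the 3 treatments with control share the same 5 control arrays.

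The difference between Lipofectamine and heat shock was not used for the choice, although the arrays of both were. Gadd45g was 0.79 lower on the log2 scale after Lipofectamine than after heat shock (SE 0.185), with every Lipofectamine array below every heat shock array. The high Gadd45g signals of both groups were known, so this value is a description, with no test. In this direction 15.3% of all probesets were wholly lower, so a lack of overlap alone was frequent.

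Benzyl alcohol arrays did not enter the choice, although the control arrays they were compared with did. They gave Gadd45g a difference of 1.51 from control (SE 0.273, 2.85-fold, adjusted p = 0.0102 by limma). It was higher in 3 of 3 arrays than in every control, as were 3.17% of all probesets, and 0.689% passed the test in this direction. With the benzyl alcohol and control arrays alone in the fit the adjusted p was 0.0782. The values against the other treatments are descriptions, since the high Gadd45g signals of those arrays were known. Against heat shock the value was -1.07, with overlapping arrays, beside 1.78% of all probesets called lower, and against Lipofectamine it was -0.28, also with overlapping arrays. Leaving out benzyl alcohol array 2 turned this last value to 0.16.

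Gadd45a, whose product restrains the G2 to M transition, differed more among the untreated arrays than between any groups. The control arrays 1 to 5 read 9.52, 4.59, 9.12, 4.66 and 4.93. Arrays 1 and 3 thus stood above every other array of the series, and arrays 2, 4 and 5 below every other one. Heat shock arrays read 7.87, 7.69 and 7.89, Lipofectamine arrays 8.06, 8.02 and 7.10, and benzyl alcohol arrays 6.08, 5.00 and 6.23. The treated arrays all lay between the high pair and the low trio of controls.

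The mean of Gadd45a in control arrays 1 and 3 was 9.32, against 4.73 in arrays 2, 4 and 5, a difference of 4.59 or 24.1-fold. This was the third-largest difference in size among the 22626 probesets, after Nupr1 at 5.13 and a probeset of Trib3 at 4.59, both genes of the stress response downstream of Atf4. The SD of Gadd45a over the 5 controls, 2.52, ranked 2 of all probesets, whose median SD was 0.161. Other genes near the top were Atf3 at 4.36, Ddit3 at 3.96, Ppp1r15a at 3.94, Chac1 at 3.89, Hmox1 at 3.77 and Ddit4 at 3.75. Arrays 1 and 3 were set apart by these signals and not by a label, so no test was made.

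The other members took a small part in this split. Gadd45g was 0.32 higher in control arrays 1 and 3, without overlap. Gadd45b differed by -0.08 at 1420197_at, without overlap, and by -0.10 and -0.13 at the other probesets, with overlap. Over all probesets, 17.7% were wholly higher and 21% wholly lower in arrays 1 and 3, so a lack of overlap alone was frequent.

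**Figure D2:**
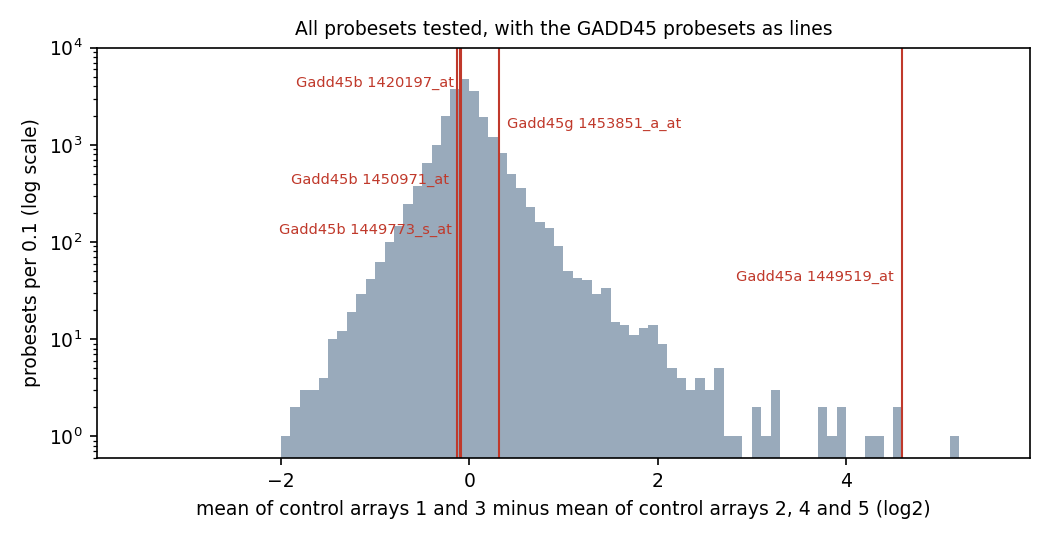
Number of probesets (log scale) by the difference between the mean of control arrays 1 and 3 and the mean of control arrays 2, 4 and 5, in bins of 0.1 on the log2 scale, with a line for each GADD45 probeset. Gadd45a lies at 4.59, far in the upper tail, while Gadd45g at 0.32 and the Gadd45b probesets lie near 0.

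Because of this split, the mean difference of Gadd45a from control was 1.16 after Lipofectamine and 1.25 after heat shock, each with an SE of 1.02, and the treated arrays overlapped the controls. Against control arrays 2, 4 and 5 alone the differences were 3.00 and 3.09, and against arrays 1 and 3 alone -1.59 and -1.50. The direction was thus set by which untreated arrays were used. Gadd45g did not turn: its differences against the 2 sets were 1.92 and 1.60 after Lipofectamine, 2.71 and 2.39 after heat shock, and 1.64 and 1.32 after benzyl alcohol.

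**Figure D3:**
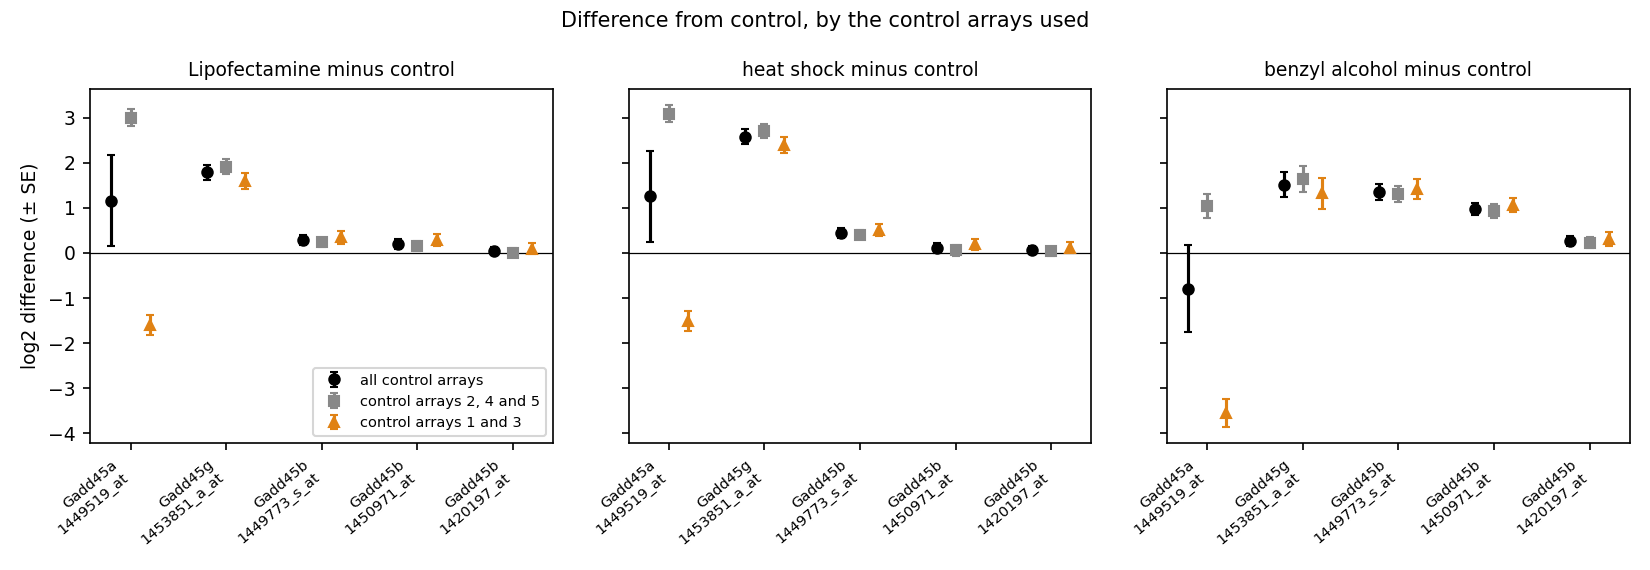
Log2 difference from control (± SE of the fit) of each GADD45 probeset after Lipofectamine, heat shock and benzyl alcohol, against all control arrays (circles), arrays 2, 4 and 5 (squares) or arrays 1 and 3 (triangles). Gadd45a lies above 0 with the trio and below 0 with the pair, whereas Gadd45g stays above 1.3 throughout.

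After benzyl alcohol Gadd45a was -0.80 from control (SE 0.962, 95% interval -2.84 to 1.25, adjusted p = 0.806 by limma), an interval that spans large changes either way. It was 1.04 against control arrays 2, 4 and 5 and -3.55 against arrays 1 and 3. Every benzyl alcohol array was below every heat shock and every Lipofectamine array, by 2.05 and 1.96 in the mean, beside 14.5% and 12.9% of all probesets that were wholly lower. The adjusted p were 0.291 and 0.282 in the fit of all 14 arrays. That fit takes its spread from the control arrays too. With only the groups compared in the fit, the adjusted p was 3.6e-04 against heat shock and 0.00192 against Lipofectamine. Lipofectamine against heat shock gave -0.09 (95% interval -2.54 to 2.35, adjusted p = 0.974).

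Gadd45b, an early response gene, moved mainly after benzyl alcohol, and at 2 of its 3 probesets. At 1449773_s_at, a set whose suffix marks probes shared by more than one transcript, control arrays read 5.81, 6.07, 6.26, 6.17 and 6.16. The benzyl alcohol arrays read 7.24, 7.03 and 8.06 there, and heat shock and Lipofectamine arrays 6.59, 6.43, 6.60 and 6.36, 6.41, 6.37. All treated arrays exceeded all controls, and the benzyl alcohol arrays exceeded all others. Over all probesets, 17.1% were wholly higher after benzyl alcohol than after heat shock and 15.6% than after Lipofectamine.

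At 1450971_at the controls read 6.91, 7.18, 6.81, 6.96 and 6.85, and the benzyl alcohol arrays 8.10, 7.54 and 8.13. Heat shock arrays read 7.15, 6.92 and 7.08, and Lipofectamine arrays 7.07, 7.30 and 7.06, both overlapping the controls. At 1420197_at all 14 arrays lay between 6.52 and 7.17, with the highest signal in benzyl alcohol array 2. That same array was the lowest of its group at the other Gadd45b probesets, at Gadd45a and at Gadd45g.

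Benzyl alcohol minus control was 1.35 at 1449773_s_at (SE 0.173, 2.55-fold, adjusted p = 7.8e-04 by limma) and 0.98 at 1450971_at (SE 0.133, 1.97-fold, adjusted p = 0.00123). At 1420197_at it was 0.26 (adjusted p = 0.309), so the 3 probesets of the gene disagreed. With Gadd45g, 3 of the 5 GADD45 probesets rose after benzyl alcohol and none fell, beside 0.689% of all probesets higher and 0.698% lower. Of these 3, 2 are probesets of the same gene, Gadd45b, and so are not separate members. The control arrays compared with Gadd45g entered the choice. Its adjusted p by limma was 0.0782 with only the benzyl alcohol and control arrays in the fit. The values at the 2 responding probesets were close whichever controls were used, at 1.31 and 1.41 for 1449773_s_at and 0.93 and 1.06 for 1450971_at.

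Both probesets were also higher after benzyl alcohol than after the other treatments. Against heat shock the values were 0.90 (adjusted p = 0.0152 by limma) and 0.87 (adjusted p = 0.00477), beside 5.44% of all probesets higher. Without heat shock array 1, 2 or 3 the first of these had an adjusted p of 0.0503, 0.0705 or 0.0543. Against Lipofectamine they were 1.06 (adjusted p = 0.00339) and 0.78 (adjusted p = 0.0044), beside 6.71% of all probesets. At 1420197_at the values were 0.19 and 0.22, with adjusted p of 0.425 and 0.299.

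After Lipofectamine and heat shock Gadd45b lay wholly above control at 1449773_s_at, by 0.28 and 0.45, and overlapped it at the other probesets. The differences there were 0.20 and 0.11 at 1450971_at and 0.04 and 0.07 at 1420197_at. Lipofectamine minus heat shock was -0.16 at 1449773_s_at, 0.09 at 1450971_at and -0.03 at 1420197_at, and none of these passed the test.

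The genes most like each member over the 14 arrays were found by the root mean square difference of log2 signals taken relative to the mean of the control arrays, which is a description. Nearest to Gadd45a were Trib3 (0.446 and 0.609 at its 2 probesets), Chac1 (0.526), Nupr1 (0.556) and Ppp1r15a (0.581), against a median of 1.66 over all probesets. These genes had the same high controls 1 and 3: Chac1, which degrades glutathione, was 3.89 higher there. Nearest to Gadd45g were the chaperone partners Bag3 (0.524) and Hspb8 (0.565), the matrix protein gene Ccn1 (0.634), the heat shock protein gene Hsph1 (0.657) and Zfand2a (0.678), against a median of 1.66. Bag3 differed from control by 0.81, 2.59 and 1.97 after Lipofectamine, heat shock and benzyl alcohol.

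Nearest to the Gadd45b probeset 1449773_s_at were Pgf (0.287), Cd68 (0.316), Rnd3 (0.335), the apoptosis regulators Cflar (0.342) and Bcl2l11 (0.343), against a median of 0.726. The Pgf signal, for a growth factor of the VEGF family, differed from control by 0.06, 0.57 and 1.14 in the same order. Cd68 is also on the macrophage marker list, of which 1 of 8 genes lay above the array median in control and Lipofectamine arrays and 2 of 8 in heat shock and benzyl alcohol arrays. The summed log2 signals of the list were 46.8 to 48.3 in control, 46.3 to 49.8 in Lipofectamine, 48.8 to 49.6 in heat shock and 48.5 to 49.9 in benzyl alcohol arrays. Their part in the result was not tested.

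**Figure D4:**
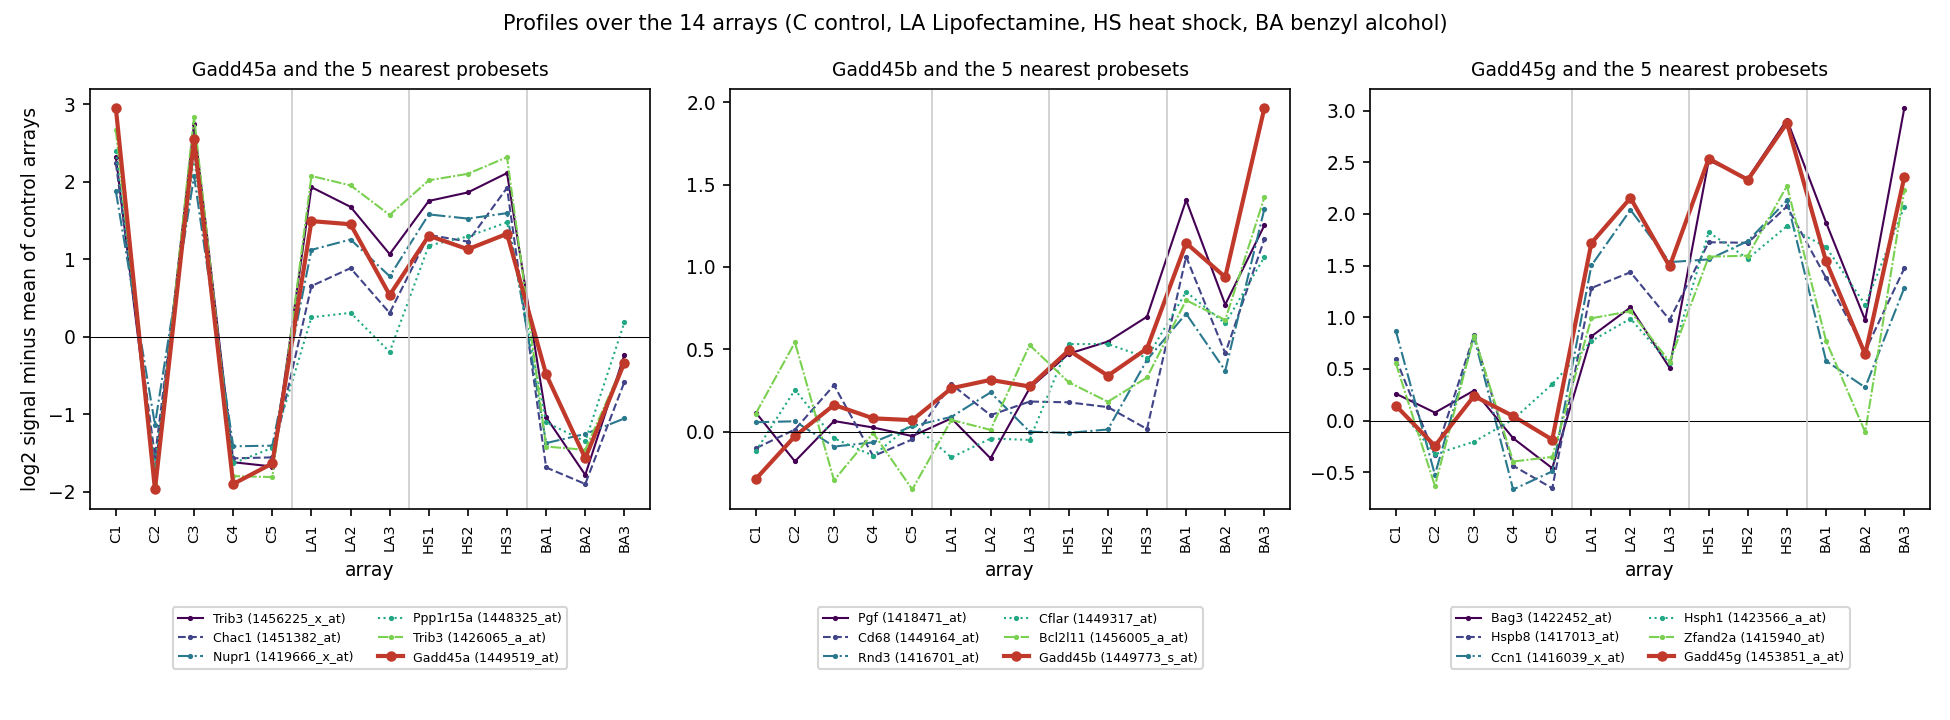
Log2 signal relative to the mean of the control arrays in each of the 14 arrays (x axis, by group) for Gadd45a, Gadd45b (1449773_s_at) and Gadd45g (thick lines) and the 5 probesets nearest to each (thin lines), with lines that only join separate arrays. The Gadd45a panel shows controls 1 and 3 high, and the Gadd45g panel shows all treated arrays above the mean of the controls but for 1 point of Zfand2a.

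Genes around the family were listed by role, with 1 probeset a gene, and 76 of 85 were measured. After Lipofectamine 4 of the 76 rose and 4 fell, after heat shock 1 rose and 5 fell, and after benzyl alcohol 1 rose and none fell, by limma at an adjusted p under 0.05. Over all probesets 1.78% rose and 3.1% fell after Lipofectamine and 1.05% rose and 4.91% fell after heat shock, and after benzyl alcohol 0.689% rose and 0.698% fell. The median difference of all probesets was -0.02, 0.03 and 0.02 after Lipofectamine, heat shock and benzyl alcohol. The lists were chosen with results of these arrays known, so the adjusted p of their genes are descriptive and not independent support. Control arrays 1 and 3 did not overlap the other controls for 51 of the 76 genes, beside 17.7% of all probesets wholly higher and 21% wholly lower there.

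Of the 10 measured binding partners of GADD45 proteins, 1 rose after Lipofectamine, and none was called after the other treatments, with median differences of -0.22, -0.31 and 0.12. The one that rose was Cdkn1a, the cell cycle inhibitor p21, by 1.23 (adjusted p = 0.043 by limma). This call was lost when any of 9 of the 11 arrays was left out. Cdkn1a also differed by 0.75 after heat shock and 1.30 after benzyl alcohol, without a call (adjusted p = 0.179 and 0.0726 by limma). It was 1.38 higher in control arrays 1 and 3, where the median of the partners was -0.44 and 9 of 10 did not overlap. Map3k4, the kinase that GADD45 proteins activate, differed by -0.25, -0.30 and -0.02 and was not called. Of 19 kinases and targets of the p38 and JNK cascade, 1 rose after Lipofectamine and none after the others. The medians were -0.03, -0.12 and 0.04. The 1 that rose was the p38 activator Map2k3, by 0.52 (adjusted p = 0.0212 by limma, lost without Lipofectamine array 1 or 2). In control arrays 1 and 3 against the other controls the median of this list was -0.09, and 11 of 19 genes did not overlap. Jun was 3.29 higher there, and differed from control by 0.48, 2.56 and 0.21 after Lipofectamine, heat shock and benzyl alcohol, without a call.

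Of 21 transcriptional regulators of the family, 1 rose and 2 fell after Lipofectamine, 1 rose and 2 fell after heat shock, and 1 rose after benzyl alcohol, with medians of 0.09, 0.05 and 0.03. Egr1, an immediate early factor, rose by 3.05 after Lipofectamine (adjusted p = 6.0e-09) and by 0.43 after heat shock (adjusted p = 0.0391, lost without any of 7 arrays). Myc, which represses growth arrest genes, fell by 0.65 (adjusted p = 0.00915) and by 1.47 (adjusted p = 1.2e-05). Brca1, a DNA repair gene, fell by 0.97 (adjusted p = 0.0183, lost without Lipofectamine array 1 or 3) and by 0.79 (adjusted p = 0.0405, lost without any of 9 arrays). Sp1, a factor that binds GC boxes, rose by 0.93 after benzyl alcohol (adjusted p = 0.00121). Atf3, a stress factor, differed by -0.05, 2.99 and 0.37 and Atf4 by 0.48, 0.78 and -0.61, none of them called. Atf3 was 4.36 and Atf4 1.70 higher in control arrays 1 and 3, so these differences depended on the controls used. Of the called genes, Brca1 differed there by -0.85 and Egr1 by 0.29, without overlap. Myc differed by 0.09 and Sp1 by 0.03, with overlap. The median of this list was 0.03 higher there, and 13 of its 21 genes did not overlap.

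Of 15 other growth arrest genes, 2 rose after Lipofectamine, Cdkn1a and the mTOR inhibitor Ddit4l by 1.27 (adjusted p = 0.00238), and none was called after the others, with medians of 0.77, 0.28 and 0.07. Ddit3 differed by -0.44, 1.92 and -1.40 and Ppp1r15a by 0.12, 1.32 and -0.76 without a call. Ddit4 differed by 1.67, 2.82 and -0.29, also without a call, and was 3.75 higher in control arrays 1 and 3. The median of this list was 1.38 higher in control arrays 1 and 3, and 12 of its 15 genes did not overlap. Of 16 genes of the G2 to M checkpoint, 2 fell after Lipofectamine and 3 after heat shock, with medians of -0.50, -0.39 and 0.01. In control arrays 1 and 3 the median of this list was also lower, at -0.50, and 11 of 16 genes did not overlap, with Plk1 at -1.03, Ccna2 at -1.09 and Cdc25b at -0.79. The part of the control split in the list results was not tested. The phosphatase Cdc25b fell by 0.85 (adjusted p = 0.0265) and the kinase Chek1 by 0.48 (adjusted p = 0.0346) after Lipofectamine, calls lost without any of 6 and 7 arrays. After heat shock the kinase Wee1 fell by 1.04 (adjusted p = 6.6e-04), Plk1 by 1.25 (adjusted p = 0.0143, lost without any heat shock array) and cyclin Ccna2 by 0.95 (adjusted p = 0.0428, lost without any of 9 arrays).

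**Figure D5:**
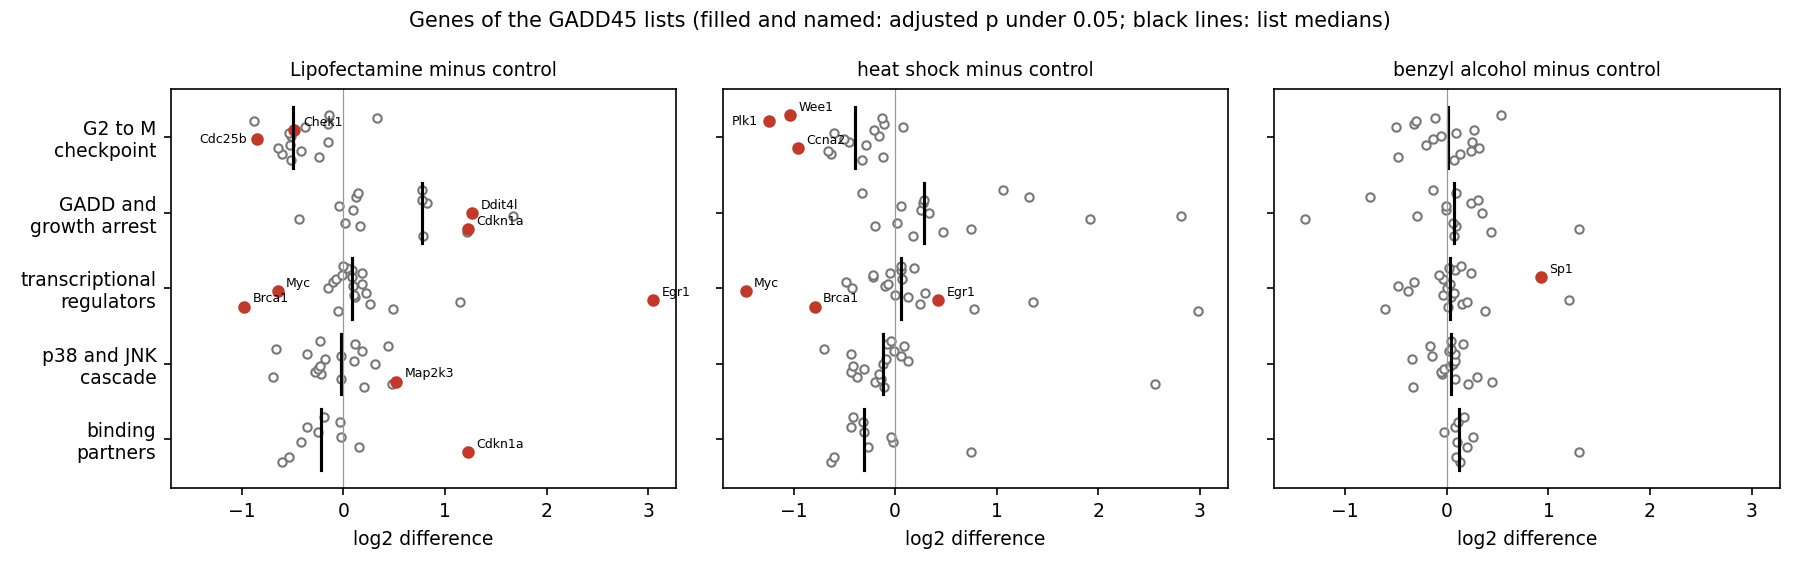
Log2 difference from control of the measured genes (points) in 5 lists of genes around the GADD45 family after Lipofectamine, heat shock and benzyl alcohol, with filled and named points for an adjusted p under 0.05 and black lines for the median of each list. Cdkn1a is in 2 lists, and most points are open.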

How the data were processed

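RNA of 14 samples was measured on Affymetrix mouse expression arrays. The authors deposited log2 values made with RMA (background correction, quantile normalisation and summary by probeset) from scans read in GCOS 1.2; the RMA version and whether all arrays were processed together are not given in the sources used here. Array medians were 7.03 to 7.12. The number of arrays limits the precision. The 64 control probesets were left out, which left 22626, with no filter on dim signals. Of these, 20380 had 1 symbol, 691 several and 1555 none; 20351 were matched to RefSeq by Entrez identifier. Groups came from the sample labels.

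Differences, moderated standard errors and Benjamini-Hochberg adjusted p-values (threshold 0.05) were computed with limma 3.58.1 in R 4.3.3, in a fit of the 11 control, heat shock and Lipofectamine arrays, or of all 14 for benzyl alcohol. A fold is 2 raised to the log2 difference. The code was tested on simulated data. The members and lists were chosen with earlier results of these data known. Named were all GADD45 probesets, up to 4 called genes per list and comparison by smallest p, and the 5 probesets most like each member whose group means spanned at least 1; uncalled genes and those of the control split were named after their values were seen. For lists, the probeset with the highest mean signal stood for a gene. Motifs were searched on both strands in RefSeq promoter windows. Alternatives changed the arrays, groups, weights, normalisation, moderation, threshold, filter and choice of probeset.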

Additional observations from a re-analysis of the deposited data

How the results depend on the processing

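Gadd45g kept its direction from control under every alternative run, between 1.60 and 1.94 after Lipofectamine, 2.39 and 2.71 after heat shock, and 1.09 and 1.95 after benzyl alcohol. Gadd45a did not. Against control arrays 2, 4 and 5 its difference was 3.00 after Lipofectamine, 3.09 after heat shock and 1.04 after benzyl alcohol, and against arrays 1 and 3 it was -1.59, -1.50 and -3.55. Array weights gave 2.49, 2.29 and 0.42 in the same order of treatments. For Lipofectamine minus heat shock, array weights gave 0.20 for Gadd45a, 0.049 for Gadd45b at 1420197_at and a called -0.18 at 1449773_s_at. They gave 0.044 for Gadd45g and a called -2.10 for Gadd45a in benzyl alcohol minus Lipofectamine.

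Some values stayed the same while the call changed. Gadd45g at 1.51 (benzyl alcohol minus control) was not called with only those groups or without moderation. Benzyl alcohol minus heat shock was not called without moderation for Gadd45b at 0.90. For Gadd45g, given without a test, it was -1.07 without moderation and -1.06 with equal medians. Gadd45a at -2.05 against heat shock and -1.96 against Lipofectamine was called with only those groups, where the spread of the controls no longer enters. The controls do not enter these 2 values, which are differences between treated groups. No call is read from the fits with either set of controls, since the sets were formed from the signals. Other causes were not tested.

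Leaving out 1 array moved Lipofectamine minus heat shock between -0.98 and -0.64 for Gadd45g, -0.26 and 0.22 for Gadd45a (0.22 without Lipofectamine array 3), and -0.072 and 0.016 for Gadd45b at 1420197_at (0.013 without heat shock array 1, 0.016 without Lipofectamine array 2). Benzyl alcohol minus heat shock moved between 0.60 and 1.11 for Gadd45b at 1449773_s_at and -1.49 and -0.63 for Gadd45g. Benzyl alcohol minus Lipofectamine moved between -0.70 and 0.16 for Gadd45g (0.16 without benzyl alcohol array 2).

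Counts of called list genes depended on the controls, and as the sets were formed from the signals these counts are descriptions. The shares of all probesets called in the refits of this paragraph were not computed. The counts are therefore not results about the list genes. With arrays 2, 4 and 5 they were 20 higher and 20 lower after Lipofectamine, 15 and 23 after heat shock, and 5 and 2 after benzyl alcohol. With arrays 1 and 3 they were 10 lower after Lipofectamine, 2 higher and 8 lower after heat shock, and 14 and 12 after benzyl alcohol. Averaging probesets gave 2 lower after Lipofectamine and 2 higher after benzyl alcohol, and quantile normalisation 2 higher after benzyl alcohol. Leaving out 1 array, added after the data were seen, gave 2 to 9 higher and 1 to 12 lower after Lipofectamine, 0 to 8 and 2 to 14 after heat shock, and 1 to 3 higher after benzyl alcohol.

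Deviations from the group means correlated between -0.56 and 0.44 for same-numbered arrays of different groups, with a median of 0.001. For differently numbered arrays they correlated between -0.65 and 0.63, with a median of 0.008. The control split enters these deviations, so they cannot decide whether the samples were paired. With the replicate number as a block, Gadd45a was -0.017 after Lipofectamine and 0.076 after heat shock. Gadd45g, given without a test, was -0.79 in Lipofectamine minus heat shock. A filter leaving out the dimmer probesets kept only 1450971_at, so the other 4 members could not be fitted there.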
